A study of Mus musculus with 12 samples.

Results

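The 9 genes described here, Btnl9, Slc10a1, Slc23a3, Slc43a2, Rhof, Aoc3, Jsrp1, Myo1a and Cd79a, were chosen as genes with almost no reads in vehicle-treated cells and far more reads in cells given doxorubicin. They are 9 of 56980 gene IDs in the count table, and all are protein-coding. Polyadenylated RNA was sequenced from NIH/3T3 cells, an immortalised line of mouse embryonic fibroblasts labelled as wild type, in 12 libraries. The 4 groups of 3 libraries were carfilzomib with doxorubicin (CFZ-DOX), doxorubicin alone (DOX), carfilzomib alone (CFZ) and the DMSO vehicle. CFZ was given at 200 nM and DOX at 5 µM, each for 8 h. Nothing in the labels says that libraries of a group came from separate cultures, so the p-values below measure only the spread between libraries, which may be technical.

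Because the 9 genes were selected on their levels in DMSO, DOX and CFZ-DOX, those levels are given as a description without a test. The CFZ libraries took no part in the choice, and the comparison of CFZ with DMSO is tested. Levels are given as CPM, the usual unit of read counts relative to library size, after scaling by the trimmed mean of M-values (TMM). All 9 genes passed the filter on low counts, and 6 of them had a mean under 0.5 CPM in DMSO. The exceptions were Rhof at 0.512 CPM, Myo1a at 1.04 CPM and Slc43a2 at 1.10 CPM, so "near-silent" holds less closely for these.

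Doxorubicin intercalates into DNA, poisons topoisomerase II and evicts histones from chromatin, and it is known to disturb both transcription and RNA processing. Carfilzomib blocks the chymotrypsin-like activity of the proteasome for good. Most of the 9 genes are known for work in other tissues than connective tissue. Slc10a1 (NTCP) takes up bile acids in hepatocytes, Myo1a is the brush-border myosin of enterocytes, Jsrp1 belongs to the skeletal muscle triad and Cd79a is the signalling chain of the B cell receptor.

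The 250 bases before the annotated start were read for 7 of the 9 genes from RefSeq windows on GRCm38.p6, a build other than that of the counts. Aoc3 and Jsrp1 were not matched. The windows of 4 genes are printed because these genes lie in contrasting surroundings, as the gene positions further on show. Btnl9 and Slc10a1 have no expressed same-strand gene within 50 kb upstream, while Slc23a3 and Cd79a have one within 10 kb. Capitals mark matches, on either strand, to the TATA box (TATAAA), the CCAAT box (CCAAT), the GC box (GGGCGG), the E-box (CACGTG), the core of the antioxidant response element (TGANNNNGC) or the p53 half-site. Sequences run 5′ to 3′ on the gene's strand. The Btnl9 window is chr11:49187090-49187339 (minus strand), and that of the more upstream of the 2 Slc10a1 starts is chr12:80968706-80968955 (minus strand). The Slc23a3 window is chr1:75133891-75134140 (minus strand), and the Cd79a window is chr7:24897247-24897496 (plus strand).
Btnl9: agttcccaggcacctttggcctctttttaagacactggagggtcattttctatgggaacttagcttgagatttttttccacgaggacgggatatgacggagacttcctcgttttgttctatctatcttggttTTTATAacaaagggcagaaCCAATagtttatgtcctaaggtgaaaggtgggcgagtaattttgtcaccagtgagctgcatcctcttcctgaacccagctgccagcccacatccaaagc
Slc10a1: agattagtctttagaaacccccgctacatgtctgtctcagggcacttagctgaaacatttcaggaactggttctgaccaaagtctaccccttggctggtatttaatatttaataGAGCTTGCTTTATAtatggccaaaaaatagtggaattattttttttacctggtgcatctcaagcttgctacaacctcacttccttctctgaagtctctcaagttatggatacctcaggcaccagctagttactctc
Slc23a3: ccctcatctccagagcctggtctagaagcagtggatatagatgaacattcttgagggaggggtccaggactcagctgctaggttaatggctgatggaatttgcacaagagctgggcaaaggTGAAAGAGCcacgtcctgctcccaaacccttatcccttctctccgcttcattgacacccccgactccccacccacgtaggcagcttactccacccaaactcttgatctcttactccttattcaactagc
Cd79a: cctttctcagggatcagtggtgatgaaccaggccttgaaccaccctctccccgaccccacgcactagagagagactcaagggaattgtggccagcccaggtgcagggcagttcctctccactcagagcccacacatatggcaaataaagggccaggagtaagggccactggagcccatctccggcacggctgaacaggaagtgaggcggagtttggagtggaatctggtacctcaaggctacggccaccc

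The printed Btnl9 window holds a TATA box on the opposite strand and a CCAAT box. That of Slc10a1 holds a TATA box on the opposite strand that shares letters with a p53 half-site. The Slc23a3 window holds the loose TGANNNNGC pattern, and the Cd79a window holds none of the 6 motifs. Over the 9 windows of the 7 matched genes, the TATA box was found for 2 genes, the CCAAT box for 3 and the GC box for 1. The E-box was found for 0, TGANNNNGC for 4 and the p53 half-site for 1, Slc10a1. Among all 32841 windows of that length the motifs were found in 12.4%, 33.9%, 32.7%, 6.02%, 35.2% and 7.13%, in the same order. These shares are of single windows, while a gene was counted if any of its windows matched. Slc10a1 and Slc43a2 had 2 windows each, so the units differ. GC content was 45.6% for Btnl9, 40.8% for Slc10a1, 52.0% for Slc23a3 and 58.8% for Cd79a, against a median of 52.4% over all windows. A match is a run of letters and not evidence of a bound factor.

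Total counts per library were 28278879 to 42033993. The first principal component, 73.8% of the variance, parted the 6 libraries with doxorubicin from the 6 without. On the third component (5.58%), DOX library 3 stood at −47.1 against 11.0 and −2.26 for DOX libraries 1 and 2, and CFZ-DOX library 3 stood at −27.9 against 31.3 and 23.5 for CFZ-DOX libraries 1 and 2. The fibroblast markers Col1a1, Col1a2 and Fn1 were abundant in every group, with the 10 listed fibroblast markers summing to 41929 to 103586 CPM in CFZ-DOX, 28495 to 65608 CPM in DOX, 17872 to 27696 CPM in CFZ and 24599 to 31815 CPM in DMSO. Of these 10, 6 rose and 2 fell in CFZ-DOX and 3 rose and 2 fell in DOX. Over all genes tested, 39.3% were called higher and 35.7% lower in CFZ-DOX, and 36.1% higher and 31.3% lower in DOX. The receptor genes Pdgfra and Pdgfrb fell in both. Pdgfra had 26.9 CPM in CFZ-DOX and 35.1 CPM in DOX, against 138 CPM in CFZ and 161 CPM in DMSO. Pdgfrb had 51.0 CPM in CFZ-DOX, 74.6 CPM in DOX and 45.1 CPM in CFZ, against 187 CPM in DMSO. Its fall was thus also seen with carfilzomib alone (log2 fold change −2.05, adjusted p of 2.75e-05 by edgeR's test). In these bulk libraries, fewer cells of a type and less RNA per cell cannot be told apart.

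The first 3 genes encode solute carriers. Slc10a1, the sodium-dependent bile acid transporter, had 10.4, 15.1 and 19.2 CPM in CFZ-DOX and 8.91, 9.84 and 13.9 CPM in DOX, against 0.208, 0.146 and 0.251 CPM in CFZ and 0.0271, 0.0230 and 0.258 CPM in DMSO. The DMSO reads were 1, 1 and 9, so most of its DMSO signal came from 1 library, and CFZ lay within the DMSO range. Its mean was 145-fold (CFZ-DOX) and 106-fold (DOX) the DMSO mean. From the summed counts, with 11 reads in DMSO, the 95% exact interval of the CFZ-DOX ratio was 87.4 to 315 and that of the DOX ratio 64.0 to 231, covering counting error only. Without DMSO library 3, 2 DMSO reads remained and the ratios were 602 (166 to 4976) for CFZ-DOX and 440 (122 to 3641) for DOX.

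Slc23a3, an orphan member of the family that holds the vitamin C transporters, had 9.12, 9.88 and 19.1 CPM in CFZ-DOX and 6.25, 7.86 and 11.4 CPM in DOX, against 0.149, 0.365 and 0.188 CPM in CFZ and 0.244, 0.138 and 0.115 CPM in DMSO. The CFZ and DMSO libraries overlapped, as did the CFZ-DOX and DOX libraries. The means were 76.7-fold (CFZ-DOX) and 51.4-fold (DOX) that of DMSO.

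Slc43a2 (LAT4), a transporter of large neutral amino acids, reached the highest CPM of the 9 genes in DOX, with 23.5, 20.8 and 48.3 CPM in CFZ-DOX and 26.7, 28.9 and 56.6 CPM in DOX, against 3.13, 2.51 and 2.41 CPM in CFZ and 1.30, 0.896 and 1.09 CPM in DMSO. It is also the longest of them, with 10042 bases of exon, and per kb of exon it was not the highest. The means were 28.2-fold (CFZ-DOX) and 34.1-fold (DOX) that of DMSO. Every CFZ library lay above every DMSO library for this gene.

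A pair of the genes belongs to the immunoglobulin superfamily. Btnl9, a butyrophilin-like surface protein, had 9.12, 4.98 and 11.7 CPM in CFZ-DOX and 13.2, 8.19 and 18.4 CPM in DOX, against 0.0298, 0.0731 and 0.0627 CPM in CFZ and 0.0814, 0.0230 and 0.0859 CPM in DMSO. The DMSO libraries held 3, 1 and 3 reads and the CFZ libraries 1, 3 and 2, so the levels without doxorubicin lay at the limit of what this depth can show. The means were 136-fold (CFZ-DOX) and 209-fold (DOX) that of DMSO, and the DOX fold was the highest of the 9 genes. The 95% exact counting interval of the summed ratio was 70.0 to 362 for CFZ-DOX and 108 to 554 for DOX.

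Cd79a had 4.96, 8.42 and 11.6 CPM in CFZ-DOX and 2.90, 4.03 and 4.69 CPM in DOX, against 0.0595, 0.0244 and 0.1254 CPM in CFZ and 0.0543, 0.0689 and 0.0859 CPM in DMSO. Its DMSO reads were 2, 3 and 3. Every CFZ-DOX library lay above every DOX library, with mean folds over DMSO of 119 (CFZ-DOX) and 55.6 (DOX). The 95% exact counting interval was 60.9 to 281 for CFZ-DOX and 28.1 to 130 for DOX. Cd79a had the lowest CPM with doxorubicin of the 9 genes, but not per kb of exon.

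Rhof, a small GTPase of filopodia, had 22.6, 27.6 and 36.9 CPM in CFZ-DOX and 9.96, 14.4 and 15.9 CPM in DOX, against 0.923, 0.731 and 0.533 CPM in CFZ and 0.434, 0.528 and 0.573 CPM in DMSO. Its CFZ-DOX libraries all lay above its DOX libraries, and CFZ and DMSO overlapped. The means were 56.7-fold (CFZ-DOX) and 26.2-fold (DOX) that of DMSO.

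Myo1a, the class I myosin that links actin bundles to the microvillar membrane, had 12.6, 19.03 and 23.5 CPM in CFZ-DOX and 9.42, 13.4 and 13.4 CPM in DOX, against 0.357, 0.365 and 0.408 CPM in CFZ and 0.543, 1.38 and 1.202 CPM in DMSO. Every CFZ library lay below every DMSO library. The folds over DMSO, 17.6 (CFZ-DOX) and 11.6 (DOX), were the lowest of the 9 genes.

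Aoc3 (VAP-1), a copper amine oxidase of adipocytes, smooth muscle and endothelium, had 11.4, 11.9 and 16.9 CPM in CFZ-DOX and 8.53, 8.83 and 11.1 CPM in DOX, against 0.417, 0.268 and 0.0627 CPM in CFZ and 0.543, 0.344 and 0.286 CPM in DMSO. The lowest CFZ-DOX library lay just above the highest DOX library. The means were 34.3-fold (CFZ-DOX) and 24.3-fold (DOX) that of DMSO.

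Jsrp1 (JP-45), which binds the calcium channel and calsequestrin at the skeletal muscle triad, had 15.3, 14.1 and 17.7 CPM in CFZ-DOX and 7.23, 7.18 and 5.35 CPM in DOX, against 0.417, 0.122 and 0.314 CPM in CFZ and 0.462, 0.276 and 0.344 CPM in DMSO. It had the highest ratio of CFZ-DOX to DOX means of the 9 genes, 2.38, and its groups with doxorubicin did not overlap. The folds over DMSO were 43.6 (CFZ-DOX) and 18.3 (DOX).

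**Figure D1:**
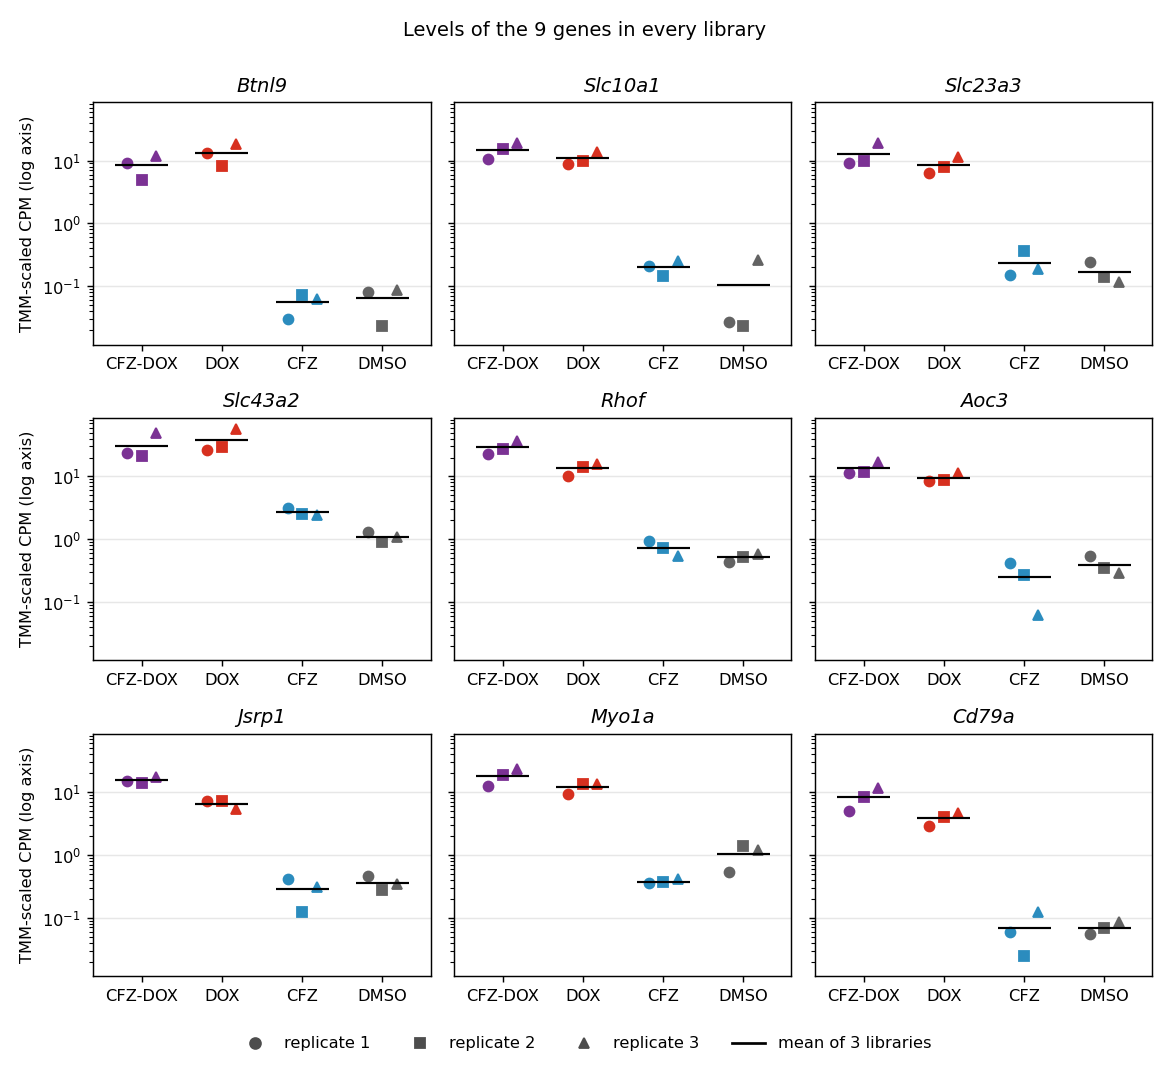
CPM of each of the 9 genes in each library, on a log axis, with CFZ-DOX, DOX, CFZ and DMSO from left to right; points are libraries and bars are group means. Every library with doxorubicin lies above every library without it in each panel, and CFZ-DOX and DOX overlap in most panels.

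For all 9 genes the lowest library with doxorubicin lay above the highest library without it. This separation is what the selection asked for, and it held for 27.9% of the 16648 genes tested. The mean was higher in CFZ-DOX than in DOX for 7 of the 9 genes, the exceptions being Btnl9, with a CFZ-DOX to DOX ratio of 0.650, and Slc43a2, with 0.826. The ratios of the other genes were 1.37 to 2.38. All 3 CFZ-DOX libraries lay above all 3 DOX libraries for 4 genes, Rhof, Aoc3, Jsrp1 and Cd79a, a pattern held by 16.1% of all genes tested. The opposite pattern was seen for 0 of the 9 genes and for 15.5% of all genes tested. No test is given, since both groups took part in the choice.

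Library 3, which stood apart in both doxorubicin groups, was also the high one for these genes. CFZ-DOX library 3 was the highest CFZ-DOX library for 9 of the 9 genes, against 43.4% of all genes tested. DOX library 3 was the highest DOX library for 7 of the 9, against 43.6%, Jsrp1 and Myo1a being the exceptions. Library 3 stood at 1.204 to 2.18 times the mean of the other two CFZ-DOX libraries and at 0.742 to 2.03 times that of the other two DOX libraries. Slc43a2 had the highest of these ratios in both groups. Without library 3 its means were 22.2 CPM in CFZ-DOX and 27.8 CPM in DOX.

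Per kb of exon, the scale on which genes can be compared, Jsrp1 had the highest mean in CFZ-DOX at 11.8 CPM per kb, followed by Slc10a1, Rhof, Slc23a3, Cd79a, Myo1a, Slc43a2, Aoc3 and, with 1.42 CPM per kb, Btnl9. The range was narrower in DOX, with Slc10a1 highest at 4.95 CPM per kb and Aoc3 lowest at 2.06 CPM per kb. The medians of the 9 genes were 5.71 CPM per kb in CFZ-DOX, 3.25 in DOX, 0.101 in CFZ and 0.0847 in DMSO.

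The 9 genes, chosen on the same contrast, had close profiles. Over the 12 libraries, Pearson's r of log2(CPM + 0.5) between pairs of them was 0.918 to 0.994, with a median of 0.974 over 36 pairs. Among 3989 other tested genes under 0.5 CPM in DMSO, 928 had r of at least 0.95 with the mean profile of the 9. Genes this low in DMSO could pass the filter on low counts through their doxorubicin libraries. The pool may therefore lean towards this profile, and the 928 are a description. The most alike, with r of 0.997 to 0.998, were Mroh6, Slc4a9, Psmb8, Ltb and Gm15544. Psmb8, an inducible proteasome subunit, had 7.71 CPM in CFZ-DOX and 4.74 CPM in DOX, against 0.0290 CPM in CFZ and 0.0339 CPM in DMSO. Ltb, the lymphotoxin beta chain, had 6.46 CPM in CFZ-DOX and 3.66 CPM in DOX, against 0.0565 CPM in CFZ and 0.0339 CPM in DMSO.

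Many genes share the pattern by which the 9 were chosen. Of 44326 genes under 0.5 CPM in DMSO, 86 reached at least 5 CPM and a further 1206 reached 1 to 5 CPM in DOX or CFZ-DOX. Ranked by CPM among these near-silent genes, Jsrp1, Slc10a1 and Aoc3 stood 1st to 3rd in CFZ-DOX, and Btnl9 stood 1st in DOX. Slc23a3, Btnl9 and Cd79a stood 7th, 20th and 22nd in CFZ-DOX. In DOX, Slc10a1, Aoc3, Slc23a3, Jsrp1 and Cd79a stood 4th, 6th, 9th, 16th and 60th. Rhof, Slc43a2 and Myo1a, over 0.5 CPM in DMSO, were not ranked. Ranked by log2 fold change among all 16648 genes tested, the 9 stood between 189 and 1079 in CFZ-DOX and between 57 and 1141 in DOX, so they are not the genes with the largest log2 changes. Outside the choice were Sv2a, a synaptic vesicle protein with 13.1 CPM in CFZ-DOX and 0.312 CPM in DMSO, and Shd with 12.7 CPM in CFZ-DOX and 0.152 CPM in DMSO. Both stood above the members Slc23a3 (12.69 CPM), Btnl9 (8.61 CPM) and Cd79a (8.32 CPM) in CFZ-DOX. Further non-members high in CFZ-DOX were Mroh6 at 11.4 CPM and the unnamed ENSMUSG00000120880 at 11.0 CPM. Gm26616 reached 12.98 CPM in CFZ-DOX and 12.9 CPM in DOX, against 0.497 CPM in DMSO. Gm26616 and ENSMUSG00000120880 each overlap an expressed gene, and their counts may include reads of that gene. In DOX the transcription factor gene Maf reached 11.0 CPM and Dzank1 10.3 CPM.

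With carfilzomib alone the mean CPM of the 9 genes was 0.362 to 2.45 times that in DMSO. With edgeR's quasi-likelihood test and Benjamini-Hochberg adjustment over all genes, 1 of the 9 was higher and 1 lower in CFZ than in DMSO. Over all genes, 14.4% were called higher and 14.4% lower. Btnl9, Slc10a1, Slc23a3 and Cd79a passed the filter on low counts only through their doxorubicin libraries, so a call in CFZ was unlikely for them. Their reads in CFZ and DMSO, summed over the 3 libraries of a group, were 6 and 7, 21 and 11, 26 and 19, and 7 and 8, in that order. The count out of 9 is therefore a description. Slc43a2 was higher, with 2.68 ± 0.387 CPM in CFZ and 1.10 ± 0.204 CPM in DMSO (SD, n = 3 each), a log2 fold change of 1.29 ± 0.37 (SE) and an adjusted p of 0.0179. Myo1a was lower, with 0.377 ± 0.0270 CPM in CFZ and 1.04 ± 0.440 CPM in DMSO (SD, n = 3 each), a log2 fold change of −1.47 ± 0.37 (SE) and an adjusted p of 0.00852. The Slc43a2 call was lost without CFZ library 1, DMSO library 2 or DMSO library 3 (adjusted p of 0.0593, 0.0726 and 0.0517, in that order) and with 3 other settings given in the closing section, and the Myo1a call with limma-voom (adjusted p of 0.0514). DMSO levels entered the choice of the genes, so only the CFZ side of this test is free of it.

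The other 7 genes did not pass, with log2 fold changes of −0.63 to 1.01. The highest of these was Slc10a1, with an adjusted p of 0.303. Leaving out DMSO library 3, which held 9 of its 11 DMSO reads, gave a log2 fold change of 2.83 and an adjusted p of 0.0153, so this result rests on 1 library. For Btnl9 and Cd79a, whose CFZ and DMSO libraries held 1 to 4 reads each, a difference was not detectable at this depth.

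The deposited table gives each gene's chromosome, start, end and strand on GRCm39, and the 9 genes were placed among their expressed neighbours, meaning those whose DMSO mean reached 1 CPM. In stressed cells RNA polymerase II is known to read past the ends of some genes. Whether it did so here was not tested. The nearest expressed gene upstream on the same strand ended within 5 kb of 4 of the 9 genes, within 10 kb of 5 and within 50 kb of 7. The nearest convergent expressed gene, on the opposite strand and facing the member's end, lay within 10 kb of 2, Slc10a1 and Jsrp1. One gene, Rhof, overlapped an expressed gene. Expressed neighbours form part of how the 9 genes were picked out, so these counts are a description. Counts per gene do not show where within a gene the reads lay.

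Slc23a3, on chromosome 1 from 75102185 to 75110534 on the minus strand, starts 663 bases after Cnppd1, a gene for a cyclin-like protein, and ends 340 bases before Nhej1, a DNA end-joining factor. Cnppd1 had 63.5 CPM in CFZ-DOX, 57.1 in DOX, 68.0 in CFZ and 45.8 in DMSO. Per kb of exon, Slc23a3 stood at 52.0% of Cnppd1 in CFZ-DOX and 38.8% in DOX, against 0.896% in CFZ and 0.939% in DMSO. Nhej1, downstream, differed little, with 4.15 CPM in CFZ-DOX, 3.81 in DOX and 4.05 in DMSO and adjusted p-values of 0.872 and 0.678 in edgeR's test.

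Aoc3, on chromosome 11 from 101221431 to 101232764 on the plus strand, starts 902 bases after its paralog Aoc2, an amine oxidase first described in retina. Aoc2 had 27.0 ± 2.61 CPM in CFZ-DOX and 14.1 ± 1.44 CPM in DOX, against 5.66 ± 0.659 CPM in CFZ and 4.62 ± 0.439 CPM in DMSO (SD, n = 3 each). It rose in CFZ-DOX (log2 fold change 2.55, adjusted p of 1.42e-08) and in DOX (1.61, adjusted p of 1.14e-06) by edgeR's test. Aoc3 and Aoc2 are similar in sequence, so reads may have been divided between them. Per kb of exon, Aoc3 stood at 27.3% of Aoc2 in CFZ-DOX and 37.1% in DOX, against 2.42% in CFZ and 4.66% in DMSO. Upstream of Aoc2, Psme3, the gene for the PA28 gamma proteasome activator, fell, with log2 fold changes of −0.50 in CFZ-DOX (adjusted p of 0.00877) and −0.41 in DOX (adjusted p of 0.0286).

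Rhof, on chromosome 5 from 123241107 to 123270755 on the minus strand, starts 1030 bases after AI480526. That gene had 12.9 CPM in CFZ-DOX and 7.22 CPM in DOX, against 1.82 CPM in CFZ and 1.84 CPM in DMSO, and rose by 2.81 in CFZ-DOX (adjusted p of 2.97e-07) and 1.97 in DOX (adjusted p of 1.18e-05) on the log2 scale. Per kb of exon, Rhof stood at 297% of AI480526 in CFZ-DOX and 245% in DOX, against 53.1% in CFZ and 36.7% in DMSO, so it passed the level of its neighbour with doxorubicin. On the opposite strand Rhof overlaps 14706 bases of Tmem120b and all of Gm43413. Tmem120b had 9.41 CPM in CFZ-DOX, 5.68 in DOX, 6.48 in CFZ and 5.20 in DMSO. Gm43413 had 2.48 CPM in CFZ-DOX and 1.47 in DOX, against 0.0698 in CFZ and 0.0230 in DMSO. Whether strand was used in counting is not known here, and reads of Rhof and of these overlapping genes cannot be told apart with certainty.

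Myo1a, on chromosome 10 from 127541039 to 127556809 on the plus strand, starts 4120 bases after Nemp1, a nuclear envelope protein gene. Nemp1 had 93.5 CPM in CFZ-DOX and 86.7 CPM in DOX, against 15.7 CPM in CFZ and 35.8 CPM in DMSO. It rose in CFZ-DOX (log2 fold change 1.39, adjusted p of 1.44e-05) and DOX (1.28, adjusted p of 4.61e-05) and fell in CFZ (−1.19, adjusted p of 0.000409) by edgeR's test. With ribosomal protein gene scaling the Nemp1 rise was lost, at −0.23 in CFZ-DOX (adjusted p of 0.495) and 0.45 in DOX (adjusted p of 0.189). Myo1a and Nemp1 were both lower with CFZ alone. Per kb of exon, Myo1a stood at 41.4% of Nemp1 in CFZ-DOX and 29.3% in DOX, against 5.07% in CFZ and 6.13% in DMSO.

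Cd79a, on chromosome 7 from 24596806 to 24601622 on the plus strand, starts 7574 bases after Rps19, a gene of the small ribosomal subunit, and ends 714 bases before Arhgef1, a guanine nucleotide exchange factor. Rps19 had 1115 ± 173 CPM in CFZ-DOX and 598 ± 111 CPM in DOX, against 356 ± 36.1 CPM in CFZ and 304 ± 17.8 CPM in DMSO (SD, n = 3 each). It rose in CFZ-DOX (log2 fold change 1.88, adjusted p of 3.62e-07) and in DOX (0.98, adjusted p of 0.000188), the DOX call being lost when the ribosomal protein genes, of which it is one, set the scale (0.08, adjusted p of 0.414). Cd79a stood at 2.40% of Rps19 per kb of exon in CFZ-DOX and 2.08% in DOX, against 0.0631% in CFZ and 0.0737% in DMSO.

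Slc43a2, on chromosome 11 from 75422520 to 75468401 on the plus strand, lies 22244 bases after Prpf8, the core protein of the spliceosome. Prpf8 had 561 CPM in CFZ-DOX, 664 in DOX, 697 in CFZ and 610 in DMSO and did not pass the test in any comparison (adjusted p of 0.529, 0.547 and 0.445). Scarf1, a scavenger receptor gene between them, 5111 bases from the start of Slc43a2 and chosen here after its values were seen, had 1.79 CPM in CFZ-DOX and 1.51 CPM in DOX, against 0.325 CPM in CFZ and 0.189 CPM in DMSO. Downstream, Pitpna, a phosphatidylinositol transfer protein gene, had 517 CPM in CFZ-DOX, 476 in DOX, 362 in CFZ and 346 in DMSO. Slc43a2 also holds Mir3971 on its own strand, at 0.0525 CPM in CFZ-DOX and 0 in the other groups. Gm45606, on the opposite strand, spans the start of Slc43a2 and shares 1378 bases with it. It had 0.696 CPM in CFZ-DOX and 0.656 CPM in DOX, against 0.155 CPM in CFZ and 0.0358 CPM in DMSO. Its summed reads were 58, 71, 16 and 4, in that order. It passed the filter on low counts only through its doxorubicin libraries, so its calls as higher in those groups say nothing further. In CFZ it was called higher by edgeR's test (log2 fold change 2.01, adjusted p of 0.0374), on 16 reads against 4. Slc43a2 was also called higher in CFZ, and reads of both genes over the shared bases may not have been parted.

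Jsrp1, on chromosome 10 from 80644330 to 80649332 on the minus strand, lies 39322 bases after Lsm7, an RNA-binding Sm-like protein gene that passed the test in no comparison (adjusted p of 0.474, 0.546 and 0.868). Facing its end, 3571 bases away, is Sf3a2, a subunit of a spliceosomal complex, with 60.3 CPM in CFZ-DOX and 47.3 CPM in DOX, against 93.9 CPM in CFZ and 115 CPM in DMSO. It fell in CFZ-DOX (log2 fold change −0.93, adjusted p of 5.88e-06) and DOX (−1.28, adjusted p of 4.99e-07). Between them lies Amh, the anti-Müllerian hormone gene, named here after its values were seen. It follows Sf3a2 on the same strand and ends 847 bases from Jsrp1. Amh had 16.5 ± 3.51 CPM in CFZ-DOX and 7.15 ± 0.722 CPM in DOX, against 0.798 ± 0.245 CPM in CFZ and 0.523 ± 0.0855 CPM in DMSO (SD, n = 3 each), levels close to those of Jsrp1.

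Btnl9, on chromosome 11 from 49056412 to 49077986 on the minus strand, and Slc10a1, on chromosome 12 from 80999957 to 81015479 on the minus strand, stand farther from expressed genes on their strand. An unnamed gene at 1.16 CPM in DOX and 0.203 CPM in DMSO lies on the strand of Btnl9 within 50 kb upstream, below the level set for an expressed neighbour. The nearest expressed gene upstream of Btnl9 was Cnot6, a deadenylase of the CCR4-NOT complex, 484343 bases away. Cnot6 fell to 26.0 CPM in CFZ-DOX and 34.8 CPM in DOX, against 113 CPM in CFZ and 141 CPM in DMSO, with log2 fold changes of −2.44 (adjusted p of 1.82e-08) and −2.02 (adjusted p of 1.42e-07) for the doxorubicin groups. Nearest to the start of Btnl9 among expressed genes is Zfp62, 16132 bases away on the opposite strand and pointing away from it. This zinc finger gene, named after its values were seen, had 11.9 CPM in CFZ-DOX and 12.5 CPM in DOX, against 43.9 CPM in CFZ and 37.4 CPM in DMSO.

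The nearest expressed gene upstream of Slc10a1 was Gm20498, 390154 bases away, with 6.45 CPM in CFZ-DOX, 6.10 in DOX, 4.43 in CFZ and 3.50 in DMSO. Per kb of exon, Slc10a1 stood at 341% of Gm20498 in CFZ-DOX and 263% in DOX, against 6.71% in CFZ and 4.32% in DMSO. Srsf5, a splicing factor gene, faces the end of Slc10a1 at 2675 bases. Srsf5 had 111 CPM in CFZ-DOX and 119 CPM in DOX, against 213 CPM in CFZ and 266 CPM in DMSO. It fell in CFZ-DOX (log2 fold change −1.26, adjusted p of 1.61e-05) and in DOX (−1.16, adjusted p of 5.13e-05).

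**Figure D2:**
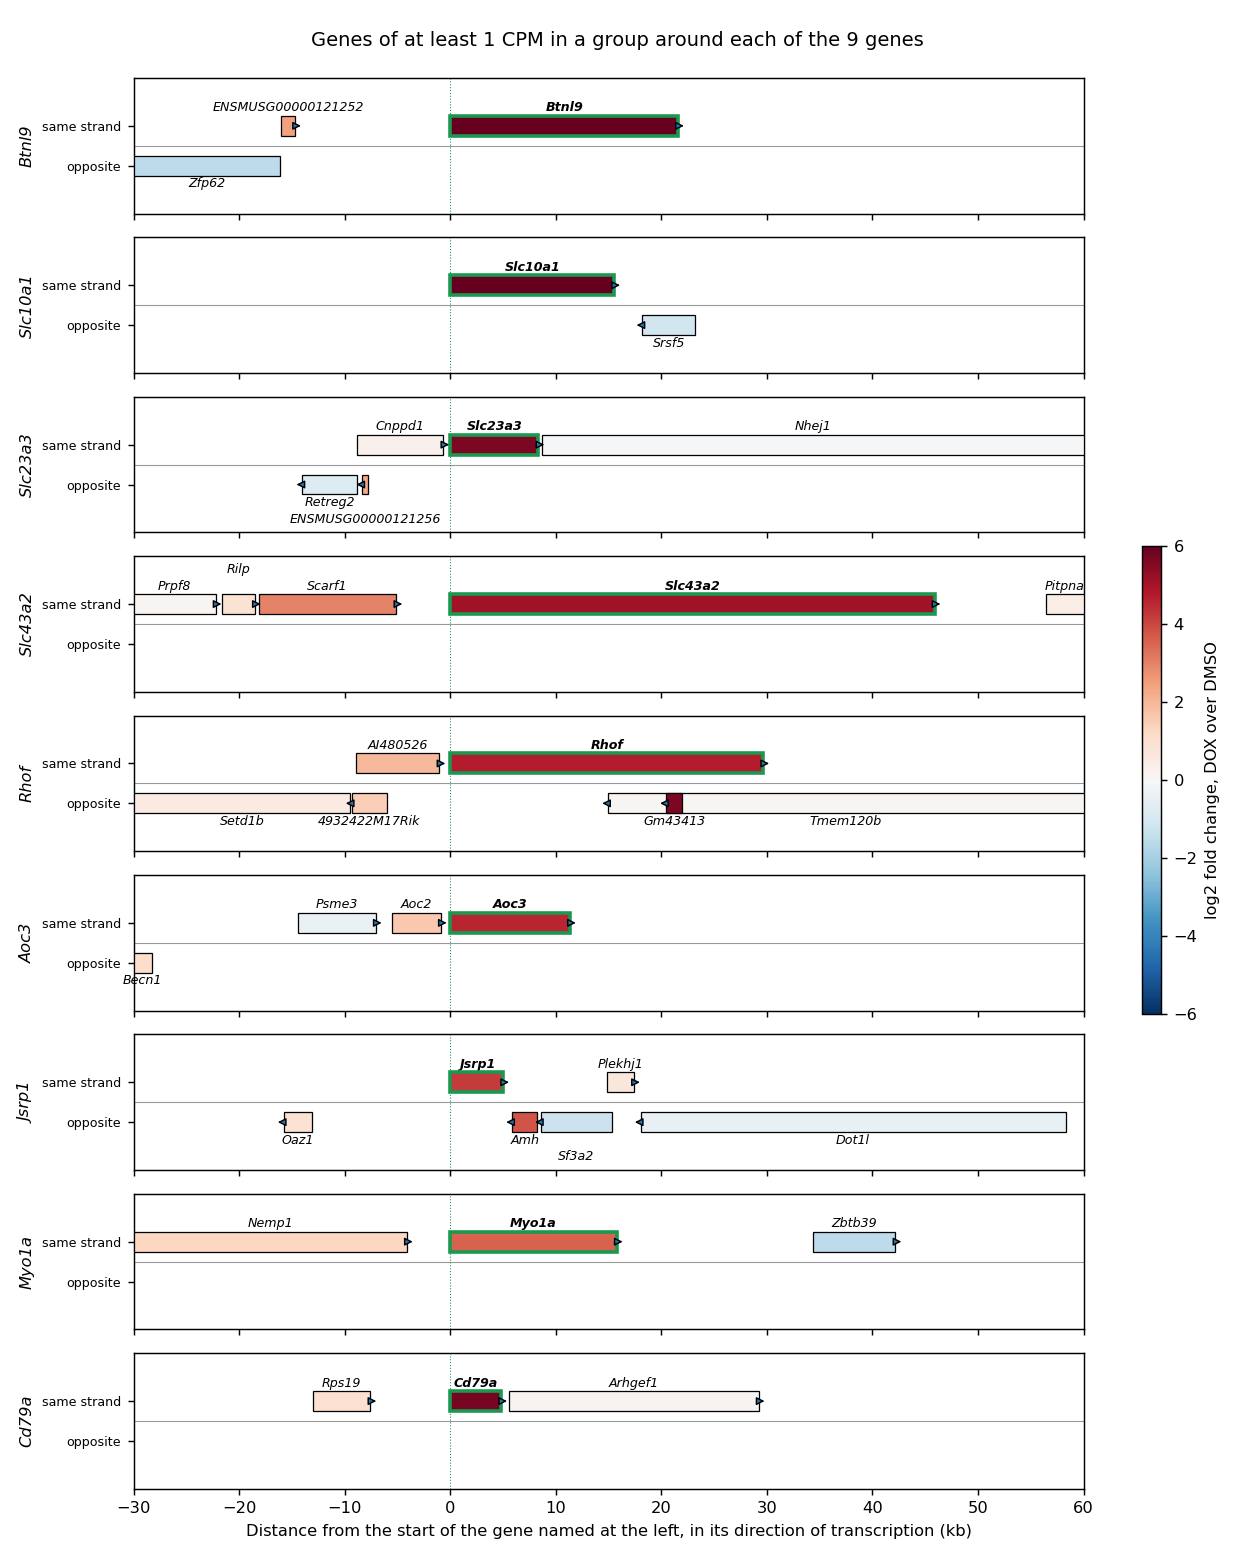
Maps of the surroundings of the 9 genes, in kb from each member's start, with transcription of the member running to the right. Boxes on the upper row lie on the member's strand and boxes on the lower row on the other, coloured by log2 fold change of DOX over DMSO; drawn are genes that reached a mean of 1 CPM in any group, grey where not tested. Aoc2, AI480526, Cnppd1 and Nemp1 end within 5 kb of the start of a member, while Btnl9 and Slc10a1 have no upstream gene on their strand within the panel that reached 1 CPM in DMSO; the small box before Btnl9 had 1.16 CPM in DOX and 0.203 CPM in DMSO.

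Taking the nearest expressed upstream gene of each of the 9, whose change played no part in the choice, 6 were higher and 1 lower in CFZ-DOX than in DMSO by edgeR's test, where 39.3% of all genes were higher and 35.7% lower. In DOX 5 were higher and 1 lower, where 36.1% of all genes were higher and 31.3% lower. In CFZ 1 was higher, Cnppd1 with a log2 fold change of 0.57 (adjusted p of 0.0233), and 1 lower, Nemp1. The Cnppd1 call in CFZ was lost without CFZ library 2 or 3 or DMSO library 2 or 3 (adjusted p of 0.0655 to 0.0809), with library-size scaling (0.237) and with ribosomal protein gene scaling (0.264). With the replicate number as a block, as the pairing of the libraries allows, 2 were lower in CFZ, Nemp1 and Cnot6. The median log2 fold change of the 9 neighbours was 0.88 in CFZ-DOX, 0.80 in DOX and 0.19 in CFZ, against 0.09, 0.14 and −0.01 over all genes tested. Both doxorubicin medians are the values of Gm20498. Of the 9 neighbours, 7 end within 50 kb of their member, while Gm20498 and Cnot6 lie 390154 and 484343 bases away. Raising the level required of a neighbour to 5 CPM replaced Aoc2 by Psme3, AI480526 by Vps33a and Gm20498 by Synj2bp, and then 3 were higher and 3 lower in both CFZ-DOX and DOX. The call of Cnppd1 in CFZ-DOX (log2 fold change 0.47, adjusted p of 0.0232) was lost without CFZ-DOX library 3 (0.25, adjusted p of 0.135), without DMSO library 2 (adjusted p of 0.0818) or 3 (0.0809) and with library-size scaling (0.17, adjusted p of 0.591), and it turned to −1.15 with ribosomal protein gene scaling.

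**Figure D3:**
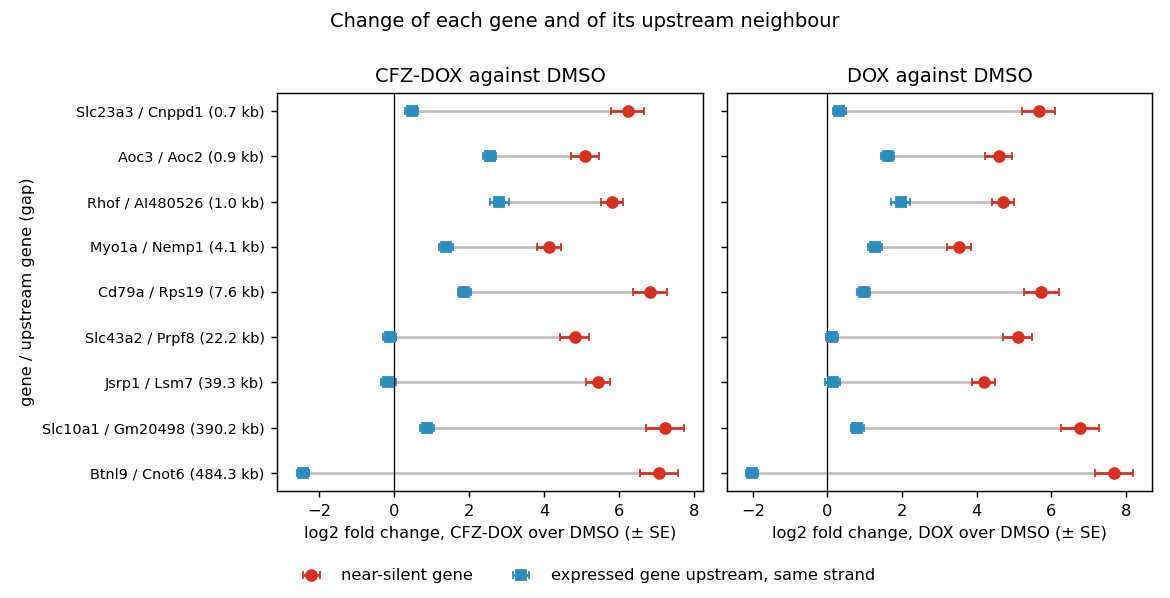
Log2 fold changes over DMSO of each member (circles) and of its nearest upstream same-strand expressed gene (squares), for CFZ-DOX (left) and DOX (right), with bars of 1 SE. Values of the upstream genes run from −2.44 for Cnot6 to 2.81 for AI480526, both in CFZ-DOX. Those of the members, which were chosen for their rise, run from 3.52 for Myo1a to 7.68 for Btnl9, both in DOX.

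The same description was extended to all near-silent genes. Genes that overlap an expressed gene were counted apart, and the positions, unlike the levels, were not used to form the classes. Of 69 genes that reached at least 5 CPM with doxorubicin, 58.0% had an expressed same-strand gene ending within 10 kb upstream. The share was 32.2% of 851 genes that reached 1 to 5 CPM and 3.47% of 35261 genes that stayed under 1 CPM. Within 5 kb the shares were 43.5%, 21.3% and 1.77%, and within 50 kb 76.8%, 56.3% and 13.3%. Without the 9 members the first class held 63 genes, of which 58.7% had such a gene within 10 kb. Among protein-coding genes alone the shares within 10 kb were 65.5% of 55, 38.6% of 526 and 4.96% of 9295.

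A convergent expressed gene lay within 10 kb of 31.9% of the genes at 5 CPM or more, 27.6% of those at 1 to 5 CPM and 4.17% of those under 1 CPM. The order of the first and second class turned for protein-coding genes, at 29.1% and 34.6%, and where near-silent meant under 0.1 CPM, at 19.2% and 29.6%. These shares are given without a test. The classes also differ in how many of their genes overlap an expressed gene, with 19.8% of 86, 29.4% of 1206 and 18.1% of 43034.

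**Figure D4:**
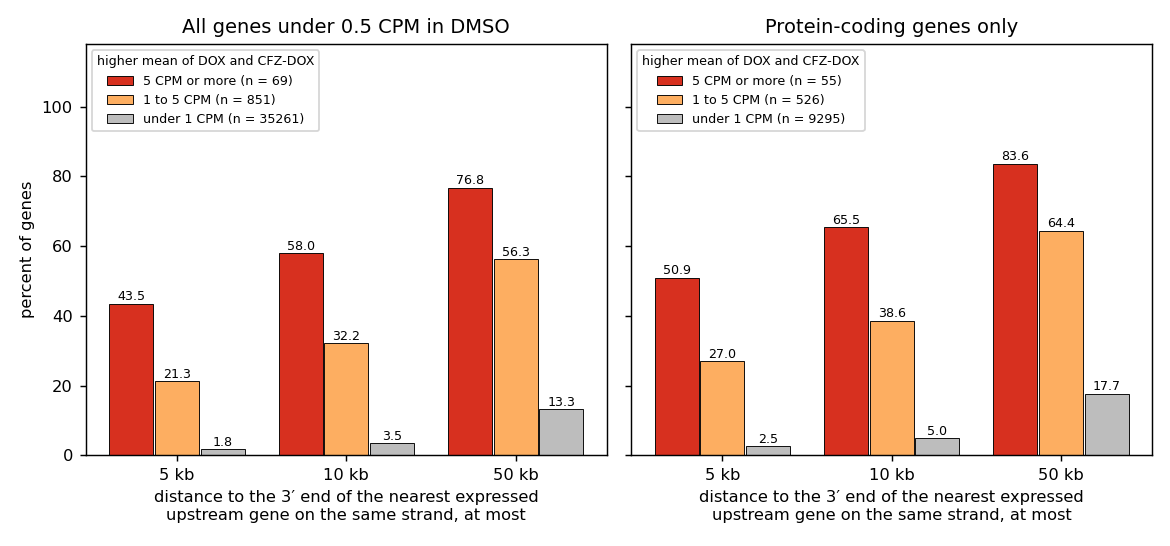
Share of near-silent genes (under 0.5 CPM in DMSO, not overlapping an expressed gene) with an expressed same-strand gene ending within 5, 10 or 50 kb upstream, by the level reached in DOX or CFZ-DOX, for all such genes (left) and protein-coding ones (right). The bars for 5 CPM or more are the highest at each distance in both panels, at 43.5%, 58.0% and 76.8% on the left.

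Relatives of the 9 genes changed in both directions. Each list below leaves out the members, and calls are edgeR's over all genes, of which 39.3% were higher and 35.7% lower in CFZ-DOX and 36.1% higher and 31.3% lower in DOX. A gene that passed the filter only through its doxorubicin libraries had to differ, so the counts describe the lists and support nothing further. Of the SLC10 bile acid transporter family 2 were tested, of which 2 fell in CFZ-DOX and 1 in DOX. Slc10a7 had 14.9 CPM in CFZ-DOX and 21.1 in DOX, against 49.8 in DMSO. In the SLC23 family, 1 of 2 tested rose and 1 fell in both groups. Slc23a1, a vitamin C transporter of epithelia, had 2.23 CPM in CFZ-DOX and 0.969 in DOX, against 0.422 in DMSO, while Slc23a2, its widely expressed relative, fell by 0.69 on the log2 scale in both. Of 2 SLC43 genes tested, 0 were called in CFZ-DOX and 1 rose in DOX, Slc43a3 by 0.76 on the log2 scale (adjusted p of 0.000483).

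Of 16 small GTPases tested from the family of Rhof, itself left out, 4 rose and 4 fell in CFZ-DOX, and 5 rose and 2 fell in DOX. Rhob, a short-lived stress-responsive GTPase, fell to 33.1 CPM in CFZ-DOX and 26.3 CPM in DOX, against 279 CPM in DMSO. Rac3 had 7.37 CPM in CFZ-DOX and 6.87 CPM in DOX, against 1.88 CPM in DMSO. Among class I myosins, the family of Myo1a, Myo1g, a myosin of blood cells, had a pattern like that of the members, with 8.32 CPM in CFZ-DOX and 3.58 CPM in DOX, against 0.0105 CPM in CFZ and 0.0811 CPM in DMSO. Myo1e fell in both doxorubicin groups, with 60.9 CPM in CFZ-DOX and 87.3 CPM in DOX, against 172 CPM in DMSO.

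Of 3 butyrophilin genes tested besides Btnl9, 2 rose in CFZ-DOX and 3 in DOX. Btnl10 had 0.449 CPM in CFZ-DOX and 0.606 CPM in DOX and 0 reads in both CFZ and DMSO. Btnl2 and Btnl6 had 0 reads in all 12 libraries. The single copper amine oxidase tested besides Aoc3 was Aoc2, described above. Of 4 triad genes tested besides Jsrp1, 4 rose in both doxorubicin groups. Stac3, a triad adaptor, had 5.62 CPM in CFZ-DOX and 3.02 CPM in DOX, against 0.598 CPM in DMSO. The dominant triad gene by level was Asph, with 230 CPM in CFZ-DOX and 203 CPM in DOX, against 147 CPM in DMSO, which many cell types express. Of 4 B cell receptor genes tested besides Cd79a, 2 rose and 1 fell in both groups. Cd79b, the partner chain of Cd79a, had 0.367 CPM in CFZ-DOX and 0.201 CPM in DOX, against 0.00954 CPM in DMSO. Syk, the kinase downstream of the receptor, fell to 3.78 CPM in CFZ-DOX and 5.44 CPM in DOX, against 18.6 CPM in DMSO.

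Markers of the tissues in which these genes are best known were measured as well. Reads are given as sums over the 3 libraries of a group. Of 9 hepatocyte markers 1 was tested, Apoa1, which rose to 0.545 CPM in CFZ-DOX and 0.253 CPM in DOX, against 0.00905 CPM in DMSO. The 9 summed to 1.33 to 2.15 CPM in CFZ-DOX, 0.672 to 1.16 CPM in DOX, 0.179 to 0.268 CPM in CFZ and 0.0459 to 0.0859 CPM in DMSO. The other 8 had 1 to 37 reads in CFZ-DOX, 0 to 19 in DOX, 0 to 18 in CFZ and 0 to 5 in DMSO. Tat, tyrosine aminotransferase, had 37 reads in CFZ-DOX and 16 in DOX, against 0 in both CFZ and DMSO, while Alb, the albumin gene, had 10 in CFZ-DOX, 2 in DOX, 3 in CFZ and 1 in DMSO.

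Of 9 B cell markers 4 were tested, of which 1 rose and 1 fell in both doxorubicin groups. They summed to 15.1 to 22.7 CPM in CFZ-DOX, 17.0 to 21.9 CPM in DOX, 38.2 to 45.5 CPM in CFZ and 37.0 to 59.9 CPM in DMSO, most of it Ebf1, a factor also found in stromal cells, with 17.4 CPM in CFZ-DOX and 19.1 CPM in DOX, against 46.8 CPM in DMSO. The 5 markers not tested had 0 to 8 reads in CFZ-DOX, 0 to 12 in DOX, 0 to 5 in CFZ and 0 to 2 in DMSO.

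Of 9 skeletal muscle markers 4 were tested and all 4 rose in both doxorubicin groups. The 9 summed to 27.6 to 39.5 CPM in CFZ-DOX and 19.4 to 30.4 CPM in DOX, against 3.70 to 6.65 CPM in CFZ and 7.74 to 9.94 CPM in DMSO. Most of it was Acta1, with 22.1 CPM in CFZ-DOX and 15.7 CPM in DOX, against 3.21 CPM in CFZ and 6.99 CPM in DMSO. Mylpf, a fast myosin light chain, had 6.28 CPM in CFZ-DOX and 3.88 CPM in DOX, against 0.295 CPM in DMSO, and Ckm, muscle creatine kinase, had 1.54 CPM in CFZ-DOX and 0.722 CPM in DOX, against 0.0249 CPM in DMSO. The 5 not tested had 1 to 18 reads in CFZ-DOX, 0 to 35 in DOX, 0 to 5 in CFZ and 0 to 9 in DMSO. Among them, the muscle determination gene Myod1 had 1 read in CFZ-DOX and 0 in each other group, and Myog had 5 reads in CFZ-DOX, 18 in DOX and 0 in both CFZ and DMSO.

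Of 9 enterocyte markers 2 were tested and both rose. They summed to 2.19 to 3.80 CPM in CFZ-DOX, 1.14 to 1.62 CPM in DOX, 0.0974 to 0.149 CPM in CFZ and 0.229 to 0.299 CPM in DMSO, with Vil1, the microvillar protein villin, at 1.35 CPM in CFZ-DOX and 0.822 CPM in DOX, against 0.0831 CPM in DMSO. Lct, lactase, had 1.12 CPM in CFZ-DOX and 0.341 CPM in DOX, against 0.0204 CPM in CFZ and 0.168 CPM in DMSO. The 7 not tested had 0 to 40 reads in CFZ-DOX, 0 to 18 in DOX, 0 to 3 in CFZ and 0 to 2 in DMSO, with the brush-border protein gene Cdhr5 at the high end of both doxorubicin ranges. Cdx2, the intestinal transcription factor, had 1 read in DOX and 0 in each other group, and Apoa4 had 0 reads in all 12 libraries.

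Of 9 adipocyte markers 2 were tested, with 1 higher and 1 lower in CFZ-DOX and 1 higher in DOX, and sums of 3.63 to 5.30 CPM in CFZ-DOX, 3.58 to 4.51 CPM in DOX, 4.35 to 5.42 CPM in CFZ and 3.19 to 4.09 CPM in DMSO. Of 8 proximal tubule markers of the kidney 3 were tested, with 1 higher and 1 lower in both groups. The 8 summed to 6.86 to 8.14 CPM in CFZ-DOX and 4.40 to 6.36 CPM in DOX. Without doxorubicin the sums were 2.41 to 3.51 CPM in CFZ and 5.70 to 6.36 CPM in DMSO. Slc5a2, the renal glucose transporter, had 4.55 CPM in CFZ-DOX and 2.05 CPM in DOX, against 0.0344 CPM in DMSO. Cubn fell, with 2.61 CPM in CFZ-DOX and 2.71 CPM in DOX, against 2.36 CPM in CFZ and 5.59 CPM in DMSO. The part of these markers in the levels of the 9 genes was not tested.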

How the data were processed

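The authors deposited a table of raw read counts for Ensembl genes, with exon lengths and positions. The submitters' processing notes name GRCm39, STAR 2.7.9a, Trimmomatic 0.39 and, from Subread 2.0.2, featureCounts. Which annotation release, strand setting and treatment of read pairs applied is not given in the sources used here. Groups and replicate numbers came from the sample titles. Symbols came from an annotation of GRCm38 used for names only and matched 52073 IDs (91.4%). Total counts of 28278879 to 42033993 per library limit precision for low genes, and exact intervals cover counting error only.

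Low genes were dropped by filterByExpr of edgeR (minimum count 10, minimum total 15). Counts were scaled by TMM and tested in edgeR 4.0.16 (R 4.3.3) with a robust quasi-likelihood fit over all 12 libraries, 1 mean per group. Benjamini-Hochberg adjustment covered all 16648 genes kept, and genes were called at an adjusted p under 0.05. Standard errors are the log2 fold change over the root of F. The script was tested on simulated counts with known changes. Alternatives used DESeq2 1.42.0, limma 3.58.1, other scalings, filters, thresholds and left-out libraries.

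The members and lists were chosen with earlier results of these data known. Named genes were the members, their nearest expressed or overlapping neighbours, up to 3 called genes with the largest changes in each list, and the near-silent genes highest or most alike. Other named genes are said to have been chosen after their values were seen, as were the genes given by their read sums, Asph, the fibroblast genes and the convergent neighbours. Results of some listed genes are not reported here. The chi-square per degree of freedom between replicates was 12.4 to 28.8 in CFZ and DMSO and 45.1 to 107 in the doxorubicin groups, so no libraries agree within sampling noise. Same-numbered libraries deviated together in the DOX comparison (r of 0.30, 0.35 and 0.18) and the CFZ comparison (0.59, 0.48 and 0.55), over 0.1 in every pair, which hints at pairing by number; in the CFZ-DOX comparison r was 0.35, 0.12 and 0.06.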

Additional observations from a re-analysis of the deposited data

How the results depend on the processing

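Of 432 log2 fold changes of the 9 genes in the doxorubicin groups under alternatives, 395 moved by less than the spread between replicates (1 SD). The other 37 moved by more, and none changed sign. The genes were chosen for large rises in these groups, so the lack of a sign change followed from the choice. The count of members higher in CFZ, 1, became 0 with library-size scaling (Slc43a2 at an adjusted p of 0.099), ribosomal protein gene scaling (0.107), limma-voom (0.0699) or an adjusted p under 0.01, and was 0 to 1 with 1 library left out. The count lower in CFZ, 1, became 0 with limma-voom. Upstream neighbours higher in CFZ, 1, became 0 with library-size scaling, ribosomal scaling or the 0.01 threshold and 2 with only the 6 libraries compared, and were 0 to 1 with 1 library left out. Those lower in CFZ, 1, became 2 with the 6 libraries, without library 3 of both doxorubicin groups (an alternative chosen after seeing the data) and in the paired fit with a replicate block, where Cnot6 passed (log2 fold change −0.33, adjusted p of 0.0371). The block moved no other count by over 1.5 times. Neighbours higher in DOX, 5, became 8 with upper-quartile scaling, 2 with ribosomal scaling and 3 with neighbours of at least 5 CPM. Those lower in DOX, 1, became 3 with ribosomal scaling or the 5 CPM neighbours. Neighbours higher in CFZ-DOX, 6, became 3 under both. Those lower in CFZ-DOX, 1, became 3 with library-size scaling or the 5 CPM neighbours and 5 with ribosomal scaling. That scaling uses 76 ribosomal protein genes, Rps19 among them, and moved the median of all genes by −1.65 in CFZ-DOX and −0.87 in DOX (log2), with 1852 genes higher and 11427 lower in CFZ-DOX and 2232 higher and 9075 lower in DOX. Under it the sign turned for Gm20498 (−0.78 in CFZ-DOX, −0.089 in DOX), Cnppd1 (−1.15 in CFZ-DOX), Nemp1 (−0.23 in CFZ-DOX), Prpf8 (−0.76 in DOX) and Lsm7 (−0.76 in DOX). Upper-quartile scaling moved the median by 0.50 in CFZ-DOX and 0.38 in DOX, with 8469 higher and 4121 lower in CFZ-DOX and 8069 higher and 3713 lower in DOX. In CFZ, 1502 genes were higher with library-size scaling and 3918 with the 6 libraries, against 2402. The cause of these moves was not tested. The share of near-silent genes at 5 CPM or more with an upstream gene within 10 kb was 53.8% when near-silent meant under 0.1 CPM and 57.5% with neighbours of at least 5 CPM, against 3.04% and 2.83% of genes under 1 CPM.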
